A study of Mus musculus with 120 samples.

Results

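Livers of the chromosome 9 consomic strain B6-Chr9MSM, here called the Chr9 strain, were compared with livers of C57BL/6J (B6), the control strain. All mice were males of 10 weeks, fasted for 4 h before collection, and no treatment other than fasting is given in the labels. A consomic strain keeps the genome of a recipient strain except for 1 chromosome taken from a donor. In the Chr9 strain the recipient was B6 and the donor was MSM, which was inbred from wild mice of Japan. Each strain was represented by 2 males and each male by 2 arrays, so the comparison rests on 8 of the 120 arrays of the series, 4 per strain. Arrays were taken by their strain label, and the animal number in the label was read as that of the male, although no label says so. Male 1 is the animal listed first. Nothing in the labels says whether the males came from different litters, so p-values measure the spread between the males sampled over all strains. The rest of the series held MSM itself and 27 other consomic strains, whose chromosome 9 comes from B6. With B6 these make 28 strains and 56 males without an MSM chromosome 9, which served as a wider reference.

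Liver transcripts that differ in such a strain can be encoded on the exchanged chromosome or elsewhere. A gene on the exchanged chromosome carries the donor's own regulatory sequence, and a gene elsewhere can, for example, respond to products of that chromosome or to the state of the animal. Genotypes off the exchanged chromosome were not checked here. Mouse chromosome 9 holds genes of fatty acid and branched-chain amino acid breakdown, the Apoa4 and Apoc3 apolipoprotein cluster, cytochromes such as Cyp1a2 and Cyp8b1, glutathione transferases of the alpha class, and signalling genes such as Ctnnb1 and Rhoa. The tissue label was checked first. Of 10 hepatocyte markers 9 were tested, and in all 4 males of the pair of strains albumin (Alb) stood at 14.80 and Ttr, the plasma carrier of thyroid hormone, at 14.51 on the deposited log2 scale. None of the 9 markers was called (0), and their median lay at -0.154 SD in Chr9 male 1 and 0.578 SD in Chr9 male 2.

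Values are log2 signals as deposited. Their spread between males was very small for most genes and differed widely from gene to gene, and the summary method is not given in the sources used here. Differences are therefore not read as fold changes, and their sizes are not compared between genes. A gene was called when limma, fitted over all 60 males with 1 mean per strain, gave a Benjamini-Hochberg adjusted p below 0.05. Each SE and p rests on the spread within strains pooled over all strains, not on that of the Chr9 and B6 males alone. Where the Chr9 males differ more than that, the SE understates their spread. Distances in SD are a male's value minus the mean of the 56 reference males, divided by the SD within strains, pooled over those 28 strains. A male was said to lie outside when its value lay beyond the lowest or the highest of the 56. That is a description with no test.

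Of 11949 tested genes 154 were called in the Chr9 strain against B6 (1.29%), 107 higher (0.895%) and 47 lower (0.393%). On chromosome 9 it was 59 of 666 genes (8.86%), 26 higher and 33 lower. Elsewhere it was 95 of 11283 genes (0.842%), 81 higher and 14 lower, where 45 genes with no chromosome in the annotation are counted. The 27 other consomic strains had between 0 and 4 calls on chromosome 9 in the same fit, with a median of 0, and between 0 and 166 elsewhere, with a median of 31.0. In all 59 chromosome 9 calls and in 94 of the 95 calls elsewhere both Chr9 males lay beyond both B6 males, so this does not set the 2 groups of calls apart. The pattern was shown by 53.6% of tested genes on chromosome 9, 43.5% elsewhere and 44.1% of all. The Chr9 males differed far more from each other than the B6 males did, and the calls have to be read male by male. Chr9 male 1 lay outside the 56 males in 3566 genes (29.8%) and Chr9 male 2 in 330 (2.76%). For comparison, each of the 56 males, set against the 54 males of the other strains, lay outside in 92 to 1832 genes, with a median of 368.

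**Figure D1:**
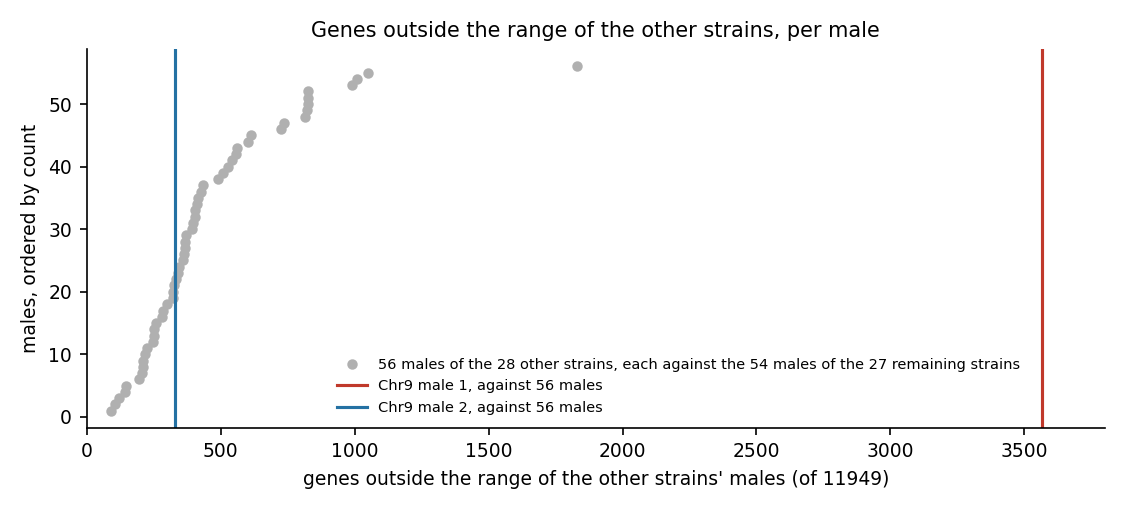
Number of tested genes (of 11949, x axis) in which a male lay outside the range of the other strains, with the 56 reference males as grey dots ordered by count (y axis) and the Chr9 males as vertical lines. Chr9 male 1 (3566 genes) stands to the right of every reference male (at most 1832), and Chr9 male 2 (330 genes) stands near their median of 368.

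Both Chr9 males lay outside on the same side in 69 genes of chromosome 9 (10.4%), 22 above and 47 below, and in 39 genes elsewhere (0.346%), 16 above and 23 below. Over all tested genes that was 0.904%. In each of the 28 reference strains both males lay outside together in 0 to 6 genes of chromosome 9, with a median of 1, and in 2 to 158 genes over the genome, with a median of 59.5. Chr9 male 1 lay outside alone in 207 genes of chromosome 9 (31.1%) and 3232 elsewhere (28.6%), which is 28.8% over all tested genes. Chr9 male 2 lay outside alone in 46 genes of chromosome 9 (6.91%) and 157 elsewhere (1.39%). So the genes in which both males stood apart were mainly on chromosome 9, and those of male 1 alone were at a like share on chromosome 9 and off it. Of the 59 chromosome 9 calls 45 had both males outside, 12 had male 1 alone and 2 had neither. Of the 95 calls elsewhere 5 had both, 77 had male 1 alone, 3 had male 2 alone and 10 had neither.

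**Figure D2:**
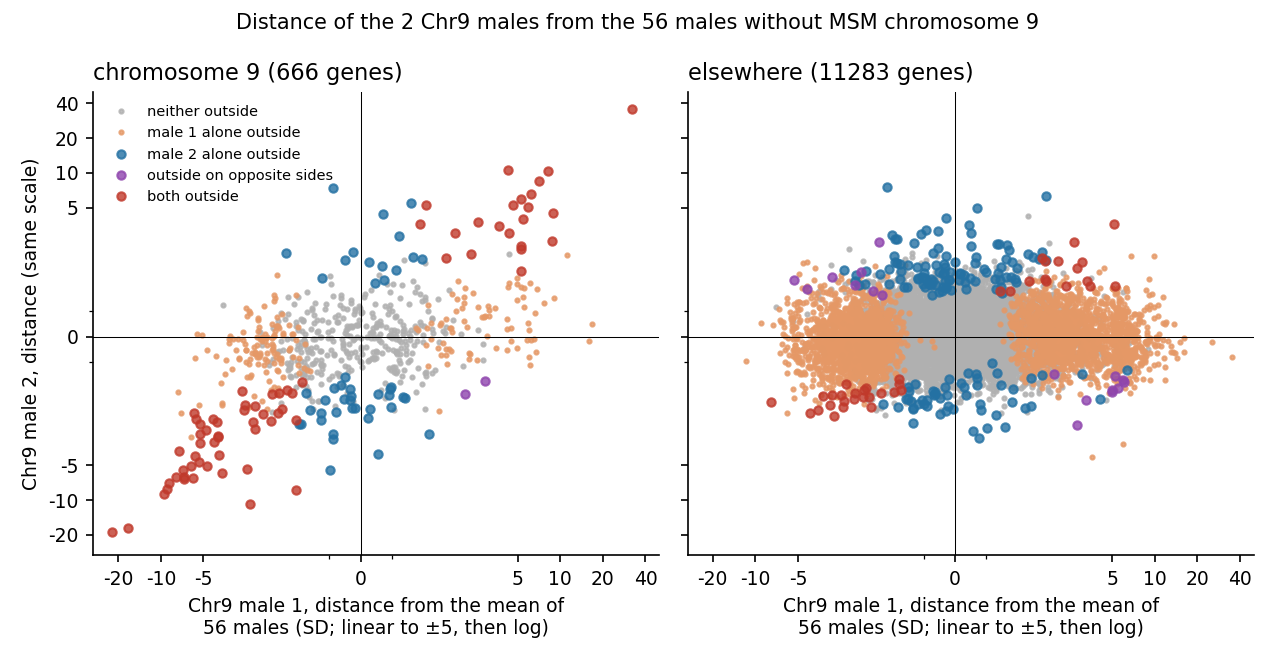
Distance of Chr9 male 1 (x axis) and Chr9 male 2 (y axis) from the mean of the 56 reference males, in SD on an axis that is linear to 5 SD and logarithmic beyond, for genes of chromosome 9 (left) and all others (right). The 69 chromosome 9 genes in which both males lay outside run along the diagonal, and the 3232 genes elsewhere in which male 1 alone lay outside spread along the x axis.

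In 5 genes, all on chromosome 9, both Chr9 males lay beyond the reference range by more than its whole width. Elsewhere there was no such gene (0 of 11283). They are Tmem205, a membrane protein gene, Qrich1, which encodes a glutamine-rich protein of the endoplasmic reticulum stress response, Dync1li1, a light intermediate chain of the dynein motor, Slc25a38, the mitochondrial glycine carrier needed for heme synthesis, and the long noncoding RNA gene D630033O11Rik. Tmem205, Qrich1, D630033O11Rik and Dync1li1 each had a single probe set, so no other probe set could be compared. Whether MSM variants under the probes touch the values of the 5 genes was not tested. The reference promoters of the 5 genes are shown because a B6 allele was exchanged for an MSM allele there. They come from RefSeq on GRCm38.p6 (the B6 sequence, not that of MSM) and run from 250 bases before to 50 after the annotated start. Capitals mark a CCAAT or a GGGCGG on either strand, the only matches found, since none of the 5 holds TATAAA (0). All 3 motifs were searched on both strands, and they do not overlap one another. Of 32851 mouse promoters of that length 37.4% hold CCAAT, 35.7% GGGCGG and 13.6% TATAAA, so these matches are common. Tmem205 is at chr9:21927486-21927785 on the minus strand (the first of 2 listed), D630033O11Rik at chr9:43259629-43259928 on the plus strand (the first of 2), Qrich1 at chr9:108516837-108517136, Dync1li1 at chr9:114688581-114688880 and Slc25a38 at chr9:120110132-120110431, these 3 on the plus strand.
Tmem205: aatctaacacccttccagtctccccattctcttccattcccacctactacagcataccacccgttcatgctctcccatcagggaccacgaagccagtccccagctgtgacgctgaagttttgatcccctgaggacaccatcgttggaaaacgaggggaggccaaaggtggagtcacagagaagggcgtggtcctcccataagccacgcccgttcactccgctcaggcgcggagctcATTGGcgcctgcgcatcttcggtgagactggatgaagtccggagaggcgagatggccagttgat
D630033O11Rik: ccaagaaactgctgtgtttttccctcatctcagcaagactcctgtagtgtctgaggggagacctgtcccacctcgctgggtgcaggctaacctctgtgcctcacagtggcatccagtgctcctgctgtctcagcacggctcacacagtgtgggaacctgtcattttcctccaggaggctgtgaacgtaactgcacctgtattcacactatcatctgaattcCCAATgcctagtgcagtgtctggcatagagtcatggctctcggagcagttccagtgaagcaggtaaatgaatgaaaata
Qrich1: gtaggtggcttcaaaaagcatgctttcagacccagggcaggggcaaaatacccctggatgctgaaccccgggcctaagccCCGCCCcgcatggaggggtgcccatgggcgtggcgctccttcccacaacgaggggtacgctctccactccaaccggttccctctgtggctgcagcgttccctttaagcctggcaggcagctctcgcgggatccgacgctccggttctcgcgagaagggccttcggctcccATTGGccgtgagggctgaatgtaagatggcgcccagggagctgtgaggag
Dync1li1: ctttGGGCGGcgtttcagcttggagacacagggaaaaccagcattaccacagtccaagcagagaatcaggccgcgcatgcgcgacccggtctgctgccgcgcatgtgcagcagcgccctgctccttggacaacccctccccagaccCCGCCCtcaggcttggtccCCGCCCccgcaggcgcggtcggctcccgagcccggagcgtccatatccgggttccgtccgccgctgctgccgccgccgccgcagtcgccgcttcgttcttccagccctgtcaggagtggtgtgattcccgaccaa
Slc25a38: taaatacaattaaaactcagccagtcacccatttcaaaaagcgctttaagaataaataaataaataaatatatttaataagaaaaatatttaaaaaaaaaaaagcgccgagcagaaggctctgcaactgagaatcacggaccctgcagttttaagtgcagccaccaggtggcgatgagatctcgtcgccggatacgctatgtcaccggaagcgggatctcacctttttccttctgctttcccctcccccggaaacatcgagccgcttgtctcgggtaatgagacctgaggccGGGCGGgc

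Tmem205 stood at 11.317 and 11.316 in the B6 males and at 11.286 and 11.291 in the Chr9 males. The MSM males were at 11.291 and 11.288, and the 56 reference males ran from 11.312 to 11.319. The Chr9 males thus lay with MSM and well below every male that carries a B6 chromosome 9. The difference from B6 was -0.0281 ± 0.00147 (2 males against 2, SE from the spread pooled over all strains, adjusted p = 9.18e-15). MSM differed from the same B6 males by -0.0269 ± 0.00147. Qrich1 stood at 8.028 and 8.027 in B6, 8.015 and 8.015 in the Chr9 strain, and 8.013 and 8.013 in MSM. Its reference range was 8.026 to 8.028, again clear of both Chr9 males. Qrich1 fell by 0.0125 ± 0.000695 (adjusted p = 3.15e-14). Dync1li1 stood at 7.8404 and 7.8405 in B6 and at 7.8361 and 7.8366 in the Chr9 strain, below the range of 7.8397 to 7.8418, and fell by 0.00413 ± 0.000483 (adjusted p = 3.13e-06). Slc25a38 stood at 7.9353 and 7.9354 in B6 and at 7.9347 and 7.9348 in the Chr9 strain, with adjusted p = 6.37e-05. D630033O11Rik was the single higher gene of the 5, at 7.749 and 7.751 in B6 against 7.773 and 7.775 in the Chr9 strain and 7.775 and 7.772 in MSM. Its reference range was 7.749 to 7.752, and the difference of 0.0241 ± 0.000832 had the lowest adjusted p of all genes tested (9.65e-20). With either Chr9 male left out all 5 kept their direction. That was fixed by the choice of genes in which each Chr9 male lay beyond the range, so it is no further support.

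**Figure D3:**
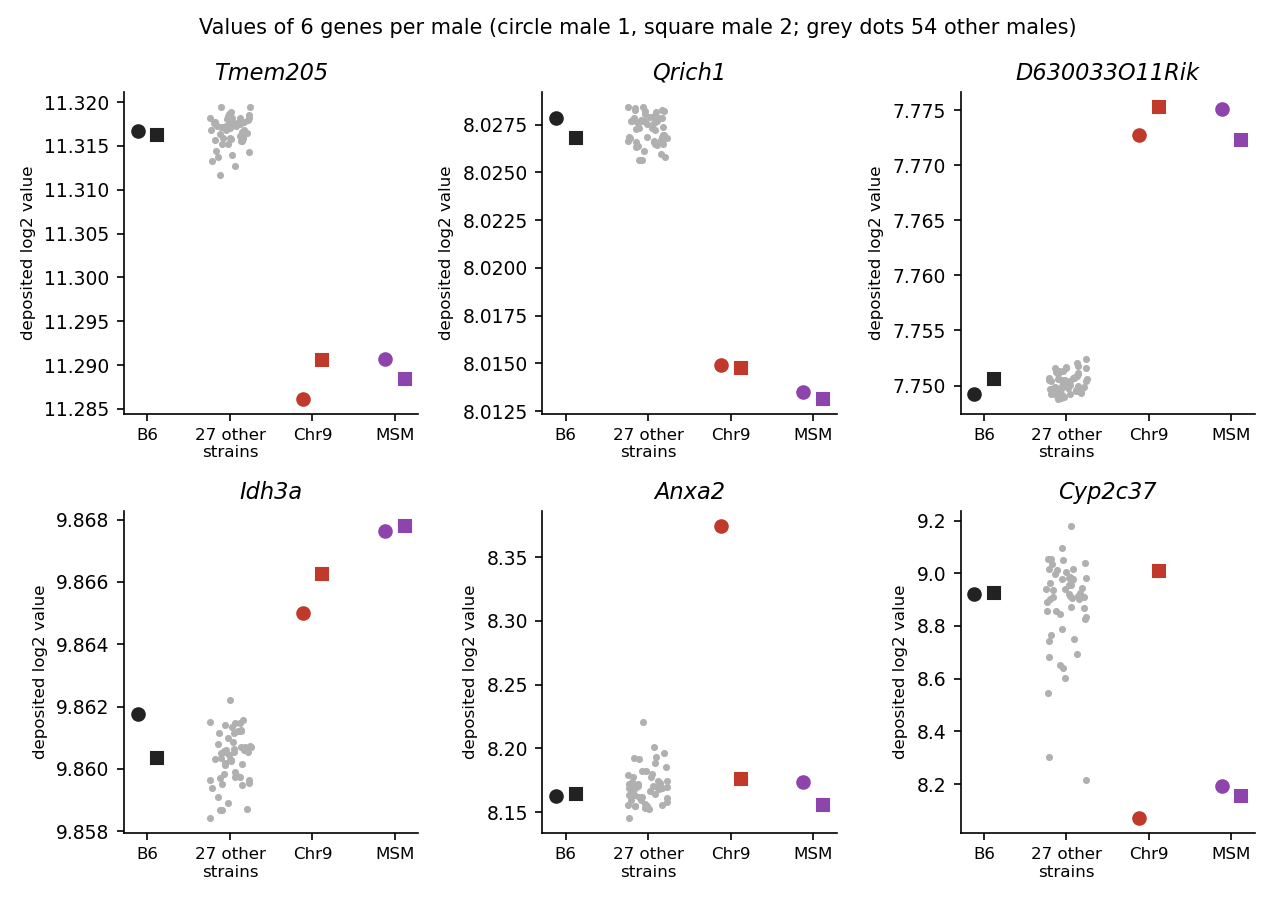
Deposited log2 values (y axis, a scale of its own for each gene and not starting at 0) of 6 genes in each male of B6, the 27 other consomic strains, the Chr9 strain and MSM. For Tmem205, Qrich1, D630033O11Rik and Idh3a both Chr9 males lie with MSM. For Anxa2 Chr9 male 1 alone lies apart from B6, MSM and the other strains. For Cyp2c37 Chr9 male 1 lies lowest, near both MSM males and both males of the chromosome 19 consomic strain.

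Genes of fatty acid and mitochondrial metabolism were the group of chromosome 9 with the most calls among the 7 groups described here. All 7 groups were chosen with earlier results of these data known, so their counts are a description and no test. The group mixes enzymes of fatty acid and amino acid breakdown with others, such as a lysosomal galactosidase (Glb1) and respiratory chain subunits. Of 24 genes in the group 21 were tested, 1 was higher and 6 were lower, beside 8.86% called over the chromosome, and in 1 above and 5 below both males lay outside. Idh3a, a catalytic subunit of the NAD-dependent isocitrate dehydrogenase of the citric acid cycle, stood at 9.862 and 9.860 in B6, 9.865 and 9.866 in the Chr9 strain and 9.868 and 9.868 in MSM. All 4 males with an MSM chromosome 9 were above the reference range of 9.858 to 9.862. Idh3a rose by 0.00457 ± 0.000569 (adjusted p = 8.46e-06), although of its 4 probe sets only the one used here was called. Bckdhb, a subunit of the branched-chain ketoacid dehydrogenase that was not in the group, rose as well, from 10.572 and 10.571 to 10.575 and 10.576 (adjusted p = 4.75e-06), with both males above the range of 10.571 to 10.573. Acad11, an acyl-CoA dehydrogenase for long chains, stood at 10.547 and 10.545 in B6 and at 10.533 and 10.534 in the Chr9 strain, below the range of 10.539 to 10.547, and MSM was at 10.532 and 10.536. The fall of 0.0125 ± 0.00182 (adjusted p = 9.12e-05) was matched by its other probe set, which fell by 0.0134. Acad8, the isobutyryl-CoA dehydrogenase of valine breakdown, fell from 8.8599 and 8.8597 to 8.8587 and 8.8589 (adjusted p = 5.42e-05). Pccb, the beta subunit of propionyl-CoA carboxylase, fell from 9.7715 and 9.7715 to 9.7701 and 9.7705 (adjusted p = 0.000524), with male 1 alone outside. Acaa1b, a peroxisomal thiolase, fell from 13.324 and 13.323 to 13.322 and 13.322 (adjusted p = 0.00459), and Nmnat3, an enzyme of mitochondrial NAD synthesis, had adjusted p = 0.0173. Bco2, the mitochondrial carotenoid-cleaving oxygenase, fell from 7.649 and 7.650 to 7.639 and 7.641, with MSM at 7.639 and 7.638 (adjusted p = 0.000140). Without Chr9 male 1 the calls of Idh3a, Bckdhb, Acad11, Acad8 and Bco2 held, and those of Pccb (adjusted p = 0.0666), Acaa1b (0.0666) and Nmnat3 (0.346) were lost. Under quantile normalization Acad11, Bco2 and Bckdhb were called, and Idh3a (adjusted p = 0.197), Acad8 (0.963), Pccb (0.258) and Nmnat3 (0.320) were not. The difference of Acaa1b was 0 there. A difference of 0 means that a gene kept its rank, so that setting could not show a change. In the same group Me1, the cytosolic malic enzyme that supplies NADPH, Abhd5, Dlat, Hacd3, Acat1, Glb1, Sdhd, Acaa1a and Cox5a had lower values in both Chr9 males than in both B6 males but were not called, with adjusted p from 0.0665 to 0.488. Over the chromosome 53.6% of genes had both Chr9 males beyond both B6 males. The group's median was -1.77 and -0.846 SD in the Chr9 males and 1.27 SD in B6 male 1, the highest of the 56 reference males. A probe set not used here was higher for Me1 (by 0.00217), Acat1 (0.00123) and Dlat (0.000114), and all other unused probe sets of these genes were lower. The difference of Hacd3 turned sign under quantile normalization. Glb1 lay farther from the reference mean in male 2 (-5.54 SD) than in male 1 (-0.981 SD).

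Paqr9, a membrane receptor family gene that is abundant in liver, stood at 9.020 and 9.017 in B6 and at 8.955 and 8.950 in the Chr9 strain, with MSM at 8.971 and 8.949. Both Chr9 males lay below the range of 8.985 to 9.038, and Paqr9 fell by 0.0662 ± 0.00991 (adjusted p = 0.000140). Its other probe set fell too, by 0.0332. Among further lower genes with both males outside, 4930581F22Rik moved from 7.479 and 7.477 to 7.464 and 7.465 (adjusted p = 0.000431), with MSM at 7.467 and 7.467. Gpd1l, related to the glycerol phosphate dehydrogenases (adjusted p = 0.0173), Aasdhppt, which attaches the phosphopantetheine arm to acyl carrier proteins (0.0220), and Myo6, a minus-end directed myosin (0.0443), were called with smaller margins, and none of the 3 was called without Chr9 male 1 (0). Dmxl2, a regulator of vesicle acidification, differed from the genes above in its MSM value. It stood at 8.483 and 8.482 in B6, 8.479 and 8.480 in the Chr9 strain and 8.482 and 8.483 in MSM (adjusted p = 0.00440), so that the Chr9 males lay below both parental strains. Its call was lost without Chr9 male 1 (0.190) and without B6 male 1 (0.212). Fam214a was called lower (adjusted p = 0.0432), but both B6 males lay at the top of its reference range, from 9.194 to 9.214, and both Chr9 males lay inside it at 9.194 and 9.204. Against the 28 strains its adjusted p was 0.134.

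Chosen after their values were seen, 3 more lower genes had both males 6 SD or more below the reference mean. Lars2, the mitochondrial leucyl-tRNA synthetase, lay at -9.54 SD in male 1 and -8.79 SD in male 2 (adjusted p = 6.44e-08). Mto1, which modifies mitochondrial tRNAs, lay at -7.80 and -6.27 SD (adjusted p = 8.51e-05), and Pml, the organizer of PML nuclear bodies, at -6.91 and -6.63 SD (adjusted p = 2.46e-05). All 3 were called without Chr9 male 1. MSM was lower than B6 for Lars2 (adjusted p = 1.30e-07) and Pml (1.85e-05) and did not pass for Mto1 (0.399).

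Further called genes of chromosome 9 are named with their distances in males 1 and 2, again after their values were seen. Lower in both males and called without male 1 were Nicn1, which encodes a subunit of the tubulin polyglutamylase complex (-4.42 and -5.80 SD), Oaf (-3.60 and -5.39), Zfp280d (-5.69 and -4.64), Dock6, an exchange factor for small GTPases (-7.50 and -4.44), and Sh3bgrl2 (-4.65 and -4.10). Cep164, a centriole appendage protein (-4.89 and -5.10 SD), Zfp560 (-5.25 and -3.79), Ppp2r3a, a regulatory subunit of protein phosphatase 2A (-4.69 and -3.19), Aplp2, the amyloid precursor-like protein (-5.85 and -2.97), and Ncapd3, a condensin subunit (-3.35 and -2.69), were called lower with both males outside but not without male 1. Arhgap42 (-3.56 and -2.73 SD) had male 1 alone outside. Higher in both and called without male 1 were Aagab, an adaptor assembly factor (4.69 and 10.6 SD), and Rnf7, a ubiquitin ligase subunit (5.26 and 5.92). Ackr2, an atypical chemokine receptor (4.85 and 5.31 SD), Cilk1, a ciliary kinase (5.45 and 4.55), Ift46, a component of intraflagellar transport (3.74 and 4.45), Acp5, the tartrate-resistant acid phosphatase (5.25 and 3.52), and Ano10 (5.23 and 3.41) were called with both outside but not without male 1. Slc51b, a subunit of the organic solute transporter for bile acids (7.67 and 1.29 SD), Rab8b (6.07 and 2.08), Lysmd2 (5.25 and 1.92) and Srprb, the beta subunit of the signal recognition particle receptor (4.73 and 2.07), had male 1 alone outside.

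Higher genes of chromosome 9 fell into a shared set and a set carried by male 1. Clasp2, a microtubule plus-end protein, stood at 7.670 and 7.670 in B6 and at 7.677 and 7.677 in the Chr9 strain, above the range of 7.670 to 7.675, with MSM between at 7.673 and 7.674 (adjusted p = 0.000663). Of its 5 probe sets 2 were called, both higher. Crtap, a cartilage-associated protein of the collagen prolyl hydroxylation complex, stood at 7.943 and 7.943 in B6, 7.945 and 7.944 in the Chr9 strain and 7.943 and 7.943 in MSM (adjusted p = 5.62e-05). Zfp810, a zinc finger gene, also stood above both parental strains, at 7.458 and 7.457 against 7.456 and 7.456 in B6 and 7.456 and 7.456 in MSM (adjusted p = 0.00910). Clasp2 and Crtap were called without male 1 and Zfp810 was not (0.274). Pxylp1, a phosphatase of proteoglycan synthesis, had neither male outside, at 7.470 and 7.466 against 7.456 and 7.460 in B6 (adjusted p = 0.0413), and MSM was higher still at 7.474 and 7.477.

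Anxa2, the calcium-dependent membrane protein annexin A2, was called on male 1. It stood at 8.163 and 8.164 in B6, 8.374 in Chr9 male 1, 8.176 in Chr9 male 2, and 8.174 and 8.156 in MSM. The reference range was 8.145 to 8.220, so male 1 was high and male 2 was inside. The difference of 0.112 ± 0.0280 (adjusted p = 0.0416) became 0.0124 without male 1 (adjusted p = 0.955), and its other probe sets were not called. Parp16, an ADP-ribosyltransferase of the endoplasmic reticulum, was at 8.231 and 8.239 in B6 and 8.287 and 8.244 in the Chr9 males, while both MSM males were high at 8.304 and 8.320. Its adjusted p went from 0.0467 to 0.940 without male 1. Gsta4, the glutathione transferase that clears 4-hydroxynonenal, was at 10.343 and 10.342 in B6, 10.357 and 10.348 in the Chr9 males and 10.353 and 10.352 in MSM (adjusted p = 0.0153, and 0.878 without male 1). Tpm1, a tropomyosin, and the small nucleolar RNA host gene Snhg5 likewise had male 1 alone outside, but male 2 lay on the same side at 3.15 and 2.27 SD. Without male 1 their differences went from 0.00310 to 0.00163 and from 0.00146 to 0.00101, and neither was called.

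Transcription and signalling genes of the chromosome gave 2 higher and 1 lower call among 25 tested of 26, near the 8.86% of the chromosome. Ctnnb1, which encodes beta-catenin, stood at 11.87514 and 11.87505 in B6, 11.87602 and 11.87541 in the Chr9 males and 11.87625 and 11.87613 in MSM, with the range ending at 11.87529. It rose (adjusted p = 0.0202), and was not called without male 1 (0.908). Rhoa, the small GTPase of the actin cytoskeleton, rose with male 1 alone outside (adjusted p = 0.0112), and Map2k1, the kinase MEK1, fell with both males outside (adjusted p = 0.0413). Neither was called without male 1 (0.511 and 0.364). Under quantile normalization the direction of Map2k1 turned, the difference of Ctnnb1 was 0 and Rhoa was not called (adjusted p = 0.681). In this group male 1 alone lay above the range in 9 genes and below it in 0 (13.6% and 15.2% over all tested genes), among them Dnmt1, the maintenance DNA methyltransferase (6.78 SD), and Keap1, the sensor that holds back NRF2 (3.91 SD). Under quantile normalization that count was 1 above and 2 below. Onecut1, a liver transcription factor also known as HNF6, was at 8.085 and 8.079 in B6 and 8.246 and 8.288 in the Chr9 strain, but the reference range of 8.042 to 8.332 held all 4 males (adjusted p = 0.106).

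The other groups of chromosome 9 were small, and their calls are given beside the 8.86% called over the chromosome, from which groups of this size cannot be set apart. Of 6 tested lipoprotein and lipase genes none was called (0). Apoa4, an apolipoprotein that responds to lipid load, was at 9.460 and 9.464 in B6, 9.786 in Chr9 male 1 and 9.454 in Chr9 male 2 (adjusted p = 0.186). Angptl6, an angiopoietin-like secreted factor, lay below the range in both males (adjusted p = 0.0616, and 0.000263 against the 28 strains), and Apoc3, an inhibitor of triglyceride clearance, was inside it in both. Of 9 xenobiotic, steroid and retinoid genes Gsta4 alone was called. Cyp1a2, the main hepatic enzyme of caffeine metabolism, was at 11.141 and 11.143 in B6, 11.114 in Chr9 male 1 and 11.137 in Chr9 male 2 (adjusted p = 0.130). Nnmt, Gsta2 and Fdx1, an electron donor of mitochondrial cytochromes, were higher in both Chr9 males than in both B6 males but not called. Fdx1 lay farther from the reference mean in male 2 (5.45 SD) than in male 1 (1.61 SD). Over the chromosome 53.6% of tested genes had both Chr9 males beyond both B6 males, higher or lower. Of 8 plasma, iron and endoplasmic reticulum genes Anxa2 alone was called, and Hyou1 and Ppib were inside the range in both males. No immune gene (0 of 13) and no DNA repair or cell cycle gene (0 of 10) of the chromosome was called. Icam1, the leukocyte adhesion molecule, was at 7.498 in Chr9 male 1 and 7.480 in male 2 against 7.479 and 7.478 in B6 (adjusted p = 0.132). Cdkn2d, a cyclin-dependent kinase inhibitor, was above the range in both males (adjusted p = 0.0804).

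Called genes were spread along the whole chromosome. In 10 bins of 66 or 67 tested genes in chromosomal order, the calls per bin were 3, 8, 4, 3, 5, 10, 12, 2, 5 and 7, and the genes with both males outside 6, 11, 5, 3, 6, 5, 11, 3, 9 and 10. The most calls fell in the sixth and the seventh bin, from Ppib to Tmem30a and from Senp6 to Srprb, and the fewest in the eighth, from 1300017J02Rik to Tcta. Of the 59 calls 8 were next to another call, and the count to be had from random placement was not computed.

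**Figure D4:**
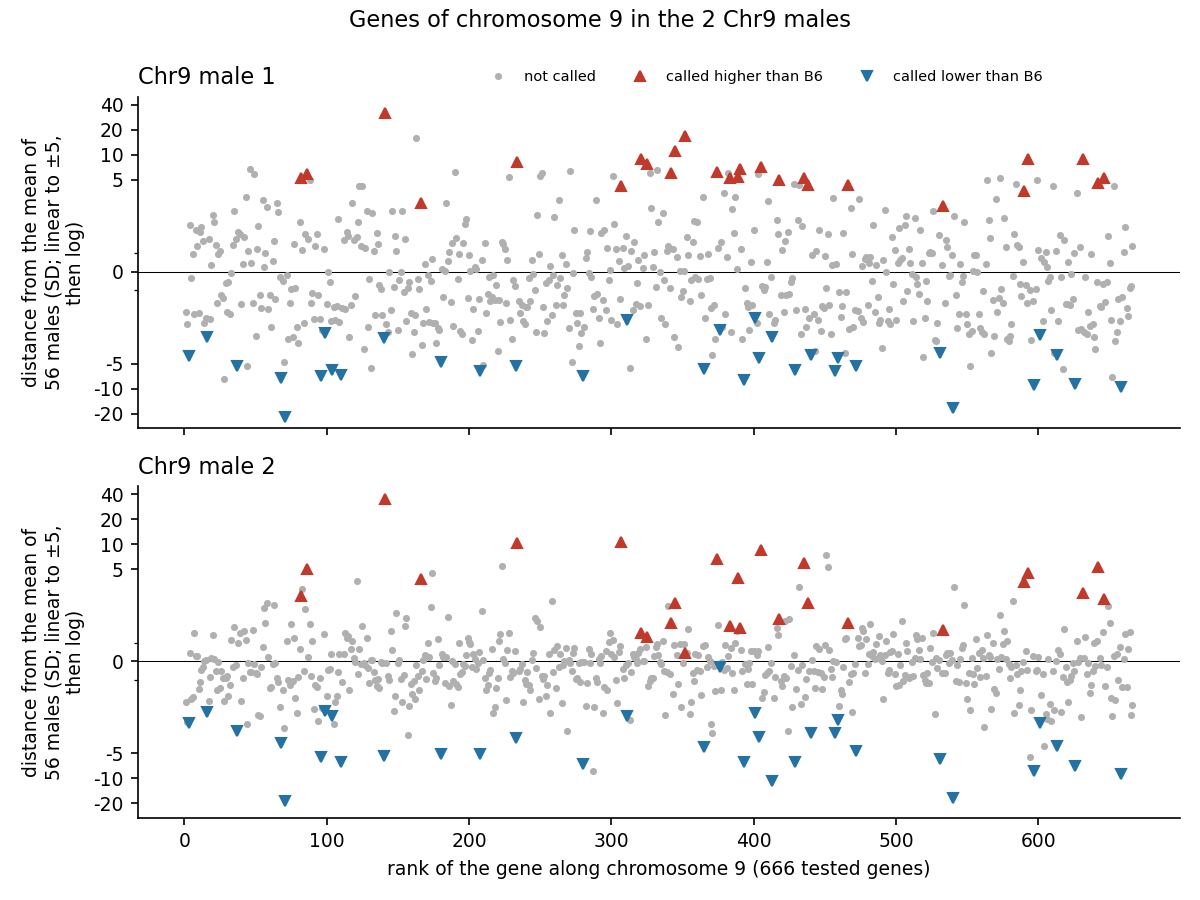
Distance of Chr9 male 1 (top) and Chr9 male 2 (bottom) from the mean of the 56 reference males in SD (y axis, linear to 5 SD and logarithmic beyond) for the 666 tested genes in chromosomal order (x axis), with the 26 genes called higher as red triangles and the 33 called lower as blue triangles. Lower calls lie below 0 in male 2 along the chromosome, with Fam214a closest at -0.333 SD, while Anxa2 lies at 16.9 SD in male 1 and 0.468 SD in male 2.

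Genes off chromosome 9 were called mostly on male 1. Sprr1a, a cornified envelope protein known as a stress-induced gene, was at 7.472 and 7.472 in B6, 7.539 in Chr9 male 1 and 7.473 in Chr9 male 2 (adjusted p = 0.0482, and 0.990 without male 1). Its reference range was 7.470 to 7.491, so male 2 was where every other strain was. The same pattern held for Cstb, the cysteine protease inhibitor cystatin B, at 10.227 and 10.227 in B6 against 10.239 and 10.228, for Cd14, the co-receptor for lipopolysaccharide, at 7.719 and 7.719 against 7.726 and 7.721, and for Ifi27l2b and Nudt18, a nucleotide hydrolase. Ly6d, a cell surface antigen, was the gene of male 1 farthest outside, at 7.913 against 7.874 in B6 male 1, B6 male 2 and Chr9 male 2 (35.4 SD, adjusted p = 0.0482). Cp, the copper carrier ceruloplasmin, was at 12.119 and 12.119 in B6 and at 12.1230 and 12.1216 in the Chr9 males, with the range ending at 12.1226 (adjusted p = 0.00345, and 0.292 without male 1). Its difference was 0 under quantile normalization. Hnrnpl, a splicing regulator, lay inside the range in both males (adjusted p = 0.0114, and 0.515 against the 28 strains). Among lower genes were Akr1c14, Akr1c19 and Akr1c13, aldo-keto reductases of steroid and xenobiotic metabolism, Col27a1, a fibrillar collagen, Mmd, Pipox, which oxidizes pipecolic acid, and Gsta3, the last of which had neither male outside. Akr1c14 was at 10.370 and 10.372 in B6 and 10.356 and 10.364 in the Chr9 males (adjusted p = 0.0173). Without male 1 the adjusted p of these 7 lower genes ran from 0.807 to 0.940.

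Off chromosome 9 the calls with both males outside were Tm7sf2, Edn3, Dhh, Chd1l and Med9, named because they are the 5. Tm7sf2, a sterol reductase of cholesterol synthesis, was at 10.064 and 10.065 in B6 and 10.051 and 10.060 in the Chr9 males, below the range of 10.061 to 10.071, with MSM above B6 at 10.068 and 10.069 (adjusted p = 0.0311). Edn3 (endothelin 3) fell with distances of -3.56 and -2.74 SD (adjusted p = 0.00917), and Dhh (desert hedgehog) with -3.98 and -2.64 SD (adjusted p = 0.0173). Chd1l, a chromatin remodeler of DNA repair, rose with 5.13 and 4.36 SD (adjusted p = 0.0135), and Med9, a mediator subunit, with 3.54 and 1.96 SD (adjusted p = 0.0428). With male 1 left out none of these 5 was called against B6 (0), and Chd1l was called against the 28 strains (adjusted p = 0.0333). The calls that did hold without male 1 were Adam11 and Fastk, 2 of the 95, against 26 of the 59 on chromosome 9. Leaving out any male leaves 1 against 2, with the lone male assumed to vary like the other strains, and the B6 males weighed as much in these counts. Without B6 male 1 24 of the 59 and 2 of the 95 held, and without B6 male 2 26 and 4. With Chr9 male 2 left out, 58 of the 59 and all 95 held.

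In all, without Chr9 male 1 the calls were 10 higher and 20 lower on chromosome 9, and 4 higher and 0 lower elsewhere (164 lower at an unadjusted p below 0.05 by limma). Without Chr9 male 2 they were 85 higher and 87 lower on chromosome 9, and 1399 higher and 726 lower elsewhere. Without B6 male 1 they were 8 and 16 on chromosome 9 and 2 and 0 elsewhere (353 lower at an unadjusted p below 0.05), and without B6 male 2 they were 7 and 19, and 4 and 1.

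Against the 28 strains with a B6 chromosome 9, a reference of 56 males, 728 genes were called (6.09%), 136 of them on chromosome 9 (63 higher and 73 lower, 20.4%) and 592 elsewhere (397 higher and 195 lower, 5.25%). With male 1 also left out, a setting chosen after the data were seen, 17 were higher and 22 lower on chromosome 9, and 7 higher and 1 lower elsewhere. MSM against the same B6 males gave 164 calls on chromosome 9, 90 higher and 74 lower, which is 24.6% of its genes. Over the genome it gave 24.7%. Both comparisons share the B6 males.

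Chr9 male 1 alone lay outside in genes of liver metabolism and in markers of other cell types. By the naming rule, which takes the largest deposited differences from B6 and orders nothing else, the 8 named above the range were Gstm3, a glutathione transferase, Lpl, lipoprotein lipase, Apoa4, Col3a1, Anxa2, Lgals1, a galectin, Noct, the rhythmically expressed gene of nocturnin, and D17H6S56E-5. Lpl was at 8.803 and 8.746 in B6, 9.112 in male 1 and 8.850 in male 2, with a range of 8.727 to 8.988. The 8 named below it were Cyp2c37, Cyp2c54, Cyp2c50 and Cyp2d13, cytochromes of drug metabolism, Serpina4-ps1, Slco1a1, an organic anion and bile acid transporter, Rdh16f2, a retinol dehydrogenase, and Sult2a8, a sulfotransferase. Cyp2c37 was at 8.920 and 8.926 in B6, 8.071 in male 1 and 9.007 in male 2, with a range of 8.217 to 9.180. The lowest reference males were those of the chromosome 19 consomic strain at 8.303 and 8.217, and MSM was at 8.193 and 8.153. Of these 16 genes only Anxa2 was called. With male 2 left out the others were called too, except Noct (adjusted p = 0.0714), Serpina4-ps1 (0.181) and Rdh16f2 (0.199). Both arrays of male 1 lay outside in 66.7% of the 3232 genes elsewhere.

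Markers of stellate cells and fibroblasts stood out in male 1. Of 13 tested markers 9 lay above the range in male 1 alone and 0 below, among them Col1a2 (8.81 SD), Pdgfra (8.78), Lum (6.57) and Col3a1 (6.30). The median of the list was 4.13 SD in male 1 and -0.559 in male 2, while it ran from -1.69 to 2.31 over the 56 reference males. Under quantile normalization the median in male 1 was 2.0 SD. Of 15 markers of Kupffer cells, the resident macrophages of the liver, 9 lay above the range in male 1 alone and 0 below, with Cd68 at 5.42 SD, Lyz2 at 4.67 and C1qb at 3.41, but Clec4f, Vsig4 and Marco inside it. The list's median was 3.21 SD in male 1 and 0.425 in male 2, against -1.35 to 2.50 over the 56 males. Among 12 cell cycle genes 7 lay above and 0 below, led by Plk1 (10.4 SD), Cdk1 (9.31) and Ccna2 (7.98), and the medians were 4.12 SD and -0.0307, against -0.895 to 1.81. None of these 3 lists held a call (0). Under quantile normalization the counts above the range were 4, 6 and 5, with 0 below, and the medians in male 1 were 2.60 SD for the Kupffer and 1.58 SD for the cell cycle list. Beside these, 1 of 9 endothelial markers, 1 of 7 lymphocyte markers (Ptprc, while Cd3e lay below) and 1 of 3 cholangiocyte markers (Krt23) lay above the range in male 1 alone, and 3 of 4 neutrophil and 2 of 4 erythroid markers below it. Pancreas, adipocyte and muscle markers had 3, 3 and 1 tested genes, of which 1 adipocyte marker was above the range. In whole liver, more cells of a type and more RNA per cell cannot be told apart. Of the hepatocyte markers Cyp2e1 (-6.60 SD) and Ttr (-2.50 SD) lay below the range in male 1. The part of these markers in the other differences of male 1 was not tested.

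**Figure D5:**
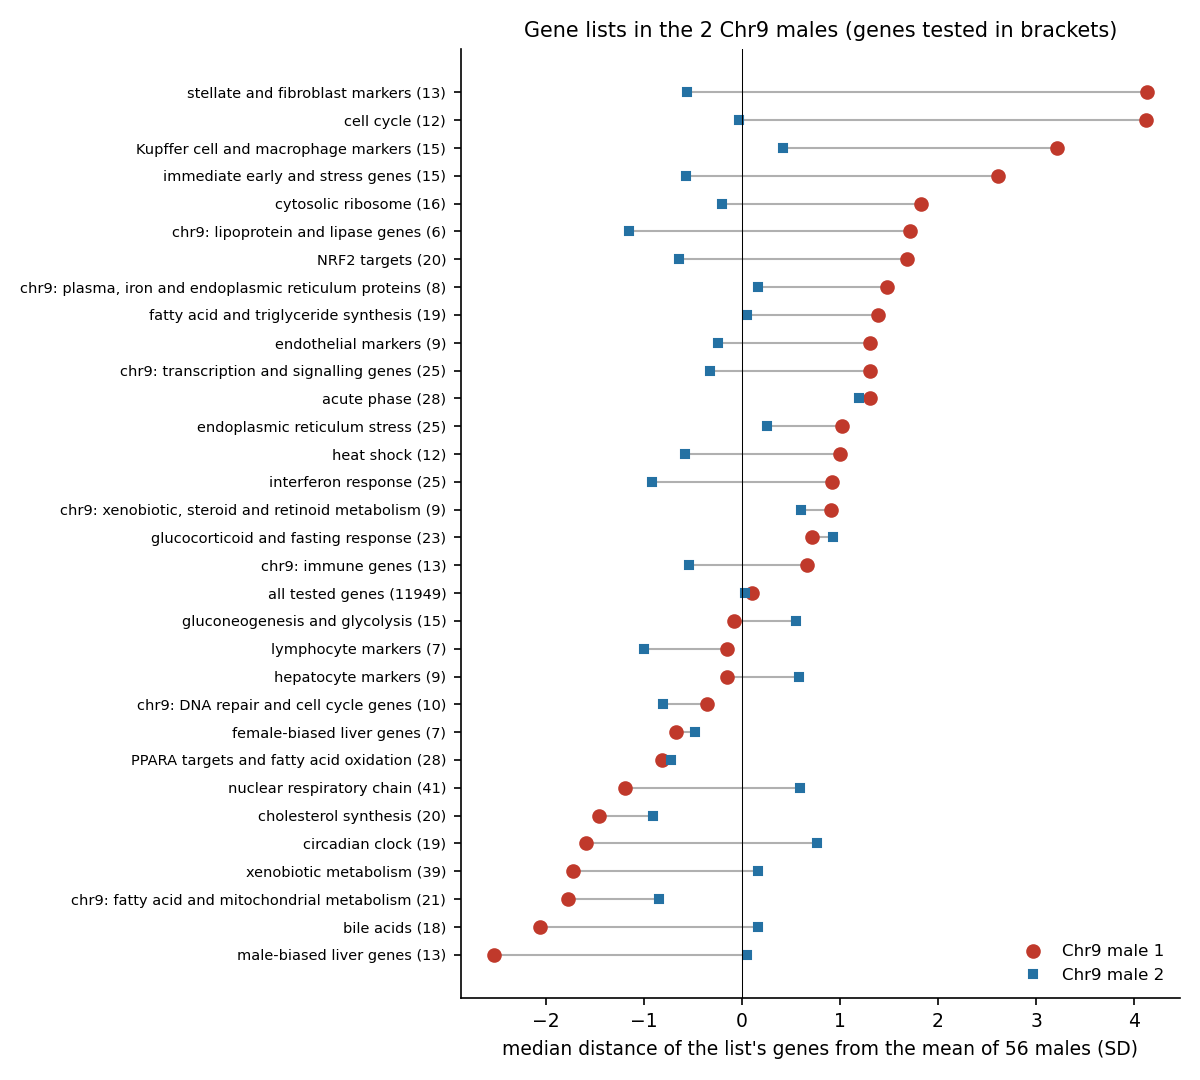
Median distance of the tested genes of each list from the mean of the 56 reference males in SD (x axis), for Chr9 male 1 (red circles) and Chr9 male 2 (blue squares), for the lists with at least 6 tested genes and for all 11949 genes. Stellate, cell cycle and Kupffer lists lie at 4.13, 4.12 and 3.21 SD in male 1, bile acid and male-biased liver genes at -2.06 and -2.53 SD. For the male-biased genes the medians of the 56 reference males reach down to -4.03 SD. The list medians of male 2 lie between -1.15 and 1.19 SD.

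Xenobiotic, bile acid, respiratory chain, clock and male-biased liver genes had list medians below 0 in male 1. For the xenobiotic, bile acid and clock lists the median lay below that of every reference male. The medians of the respiratory chain list (-1.19 SD, 56 males from -1.46 to 1.3) and the male-biased list (-2.53 SD, 56 males from -4.03 to 0.852) lay inside. Of 39 xenobiotic metabolism genes 14 lay below the range in male 1 alone and 3 above (background 15.2% below and 13.6% above), with Sult2a8 at -9.09 SD, Cyp2e1 at -6.60, Cyp2c29 at -6.21 and the xenobiotic receptor Nr1i3 at -4.36. The list's median was -1.72 SD, against -1.20 to 0.996 over the 56 males, and 0.167 in male 2. Of 18 bile acid genes 5 lay below and 0 above, among them the uptake transporters Slc10a1 (-6.36 SD), Slco1a1 (-3.56) and Slco1b2 (-3.28) and the synthetic enzyme Cyp27a1 (-4.59). Cyp7a1, the rate-limiting enzyme of bile acid synthesis, and Cyp8b1 were inside. Of 41 nuclear genes of the respiratory chain 13 lay below and 0 above, with Uqcrc1 at -5.37 SD and Sdhd at -5.10. Under quantile normalization none of these 41 lay outside in male 1 alone (0), for 15 of them the quantile-normalized value did not vary between males, and the bile acid and xenobiotic counts became 3 and 11 below. Of 19 clock genes 6 lay below and 2 above. Those below were Hlf, Tef, Usp2, Cry2, Ciart and Bhlhe41, while Nfil3 and Noct were above, and the core genes Arntl, Nr1d1 and Per1 were inside. Of 13 male-biased liver genes 3 lay below and 0 above.

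Over all tested genes male 1 alone lay above the range in 13.6% and below it in 15.2%, and several of the stress and growth lists were near or under the first share. Of 20 NRF2 targets 7 lay above in male 1 alone and 0 below, and under quantile normalization 3 and 0. Gstm3 (6.64 SD), Srxn1 (6.68) and Pgd (6.75) were among them, and Nqo1, a classical target, was inside in both males. Of 28 acute phase genes 5 lay above, among them Hp (haptoglobin, 4.63 SD) and Hpx (hemopexin, 3.53 SD), and 2 were called, Cd14 and Cp. Under quantile normalization 1 acute phase gene lay above. The list's median was 1.31 SD in male 1 and 1.19 SD in male 2, and 3 and 4 of the 56 males were at or above these values. Of 19 lipogenic genes 5 lay above, namely Scd1, Fads2, Elovl5, Acaca and Acly. Of 16 ribosomal protein genes 3, of 15 immediate early genes 2, of 25 endoplasmic reticulum stress genes 2 and of 12 heat shock genes 1 lay above, with none below in these lists (0). The glucocorticoid and fasting list had 3 of 23 above, the interferon list 1 of 25, and gluconeogenesis and glycolysis 1 above and 1 below of 15. Cholesterol synthesis had 2 of 20 below, PPARA targets 4 of 28 and female-biased liver genes 3 of 7.

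Chr9 male 2 alone lay outside in few genes. By the same rule the 4 named above the range were Ppp1r3c, a glycogen-targeting phosphatase subunit, Thrsp, a regulator of lipogenesis, Fkbp5, a glucocorticoid-induced immunophilin, and Saa4, a constitutive serum amyloid. Fkbp5 was at 8.464 and 8.496 in B6, 8.445 in male 1 and 8.533 in male 2, with a range of 8.410 to 8.521. The 4 named below were Erdr1, Osgin1, a growth inhibitor induced by oxidative stress, Sqle, squalene epoxidase, and Angptl8, a feeding-induced regulator of lipoprotein lipase. Sqle was at 7.539 and 7.538 in B6, 7.533 in male 1 and 7.516 in male 2. On chromosome 9 there were 5 genes in which male 2 but not male 1 was beyond the range by more than its width, named because they are the 5. In 4 of them male 1 lay outside too, on the same side. These were Idh3a, Rsl24d1 (6.19 and 6.62 SD in males 1 and 2), Cyb5r4, a cytochrome b5 reductase (-3.51 and -10.7 SD), and Hexa. Hexa, the alpha subunit of the lysosomal beta-hexosaminidase, was at 8.977 and 8.976 in B6, 8.976 in male 1 and 8.971 in male 2 (adjusted p = 0.0848), where the range began at 8.976. The fifth, A4gnt, a glycosyltransferase of mucin glycans, was at -0.864 SD in male 1 and 7.43 SD in male 2 (adjusted p = 0.124). Without male 1 both Hexa (adjusted p = 0.00125) and A4gnt (0.000169) were called.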

How the data were processed

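Liver RNA was measured on 120 Affymetrix Mouse Genome 430 2.0 arrays, 2 for each of 60 males. The deposited log2 signals per probe set were normalized between arrays by the authors, since array medians lay at 7.416 to 7.417. The log base was read from the values (6.34 to 14.82), and the summary method is not given in the sources used here. The number of arrays limits the precision. No detection call was used. Probe sequences were not used here, and whether MSM variants under the probes touch a value was not tested.

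Of 45037 probe sets 34945 had 1 gene symbol in the platform annotation, 932 had several and 9160 had none, and 34741 matched a gene ID of the RefSeq GRCm38.p6 table, which gave chromosome and gene order. The probe set of highest mean was kept for each of 18193 genes, and 11949 genes with at least 2 males above the median of all values (7.417) were tested. Values were averaged over the arrays of each male, and limma 3.58.1 in R 4.3.3 was fitted with 1 mean per strain and 30 residual degrees of freedom. The residual SD had a median of 5.95e-05 over genes. Alternatives covered scaling, filter, reference, array, moderation, probe set and each male. The fit was tested on simulated data with normal noise, the same SD in every strain and the same shift in both Chr9 males. A single male that stands apart was not simulated.

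Named genes are, on chromosome 9, the 12 higher and 12 lower called genes of largest difference with non-overlapping males, elsewhere 8 and 8, of male 1 alone 8 and 8, of male 2 alone 4 and 4, up to 4 called members of each list, and every member of a chromosome 9 list whose males did not overlap. Other names were chosen after their values were seen. The members and the 37 lists were chosen with earlier results of these data known.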

Additional observations from a re-analysis of the deposited data

How the results depend on the processing

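With 2 males per strain, single calls rest on a spread estimated over all strains, and without a detection call low genes cannot be told from background. On chromosome 9 the 26 higher and 33 lower calls became 5 and 10 under quantile normalization, 16 and 20 with only genes above the upper quartile (7005 tested), 12 higher from the first arrays and 16 from the second, 17 lower from the first, 63 and 73 against the 28 strains, and 40 and 57 over all probe sets. Elsewhere the 81 higher and 14 lower calls became 15 and 6 under quantile normalization, 52 higher with the median deviation of each male removed, 47 higher above the upper quartile, 11 and 2 from the first arrays, 52 higher from the second, and 397 and 195 against the 28 strains. A limma fit of only the Chr9 strain and B6 called 0 genes in all 4 counts, with 41 and 68 on chromosome 9 and 595 and 243 elsewhere at an unadjusted p below 0.05. With 1 male left out the counts ran from 7 to 85 and 16 to 87 on chromosome 9, and from 2 to 1399 and 0 to 726 elsewhere. Against the 28 strains without Chr9 male 1, chosen after seeing the data, they were 17 higher on chromosome 9, and 7 and 1 elsewhere, and without Chr9 male 2 98 and 144, and 1731 and 1406.

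Under quantile normalization 15 of the 59 calls on chromosome 9 and 9 of the 95 elsewhere were kept, and the difference turned sign in 4 and 14. It was 0 in 3 and 3, where the gene kept its rank and that setting could not show a change. Of the 48 named genes that were called Map2k1 turned, to 0.0003242 (adjusted p = 0.729), and of those not called Hacd3 (0.0007231), Tfdp2, Ccr9 and Thy1 did. With each male's median deviation removed 55 and 66 were kept. The median gene lay 0.115 residual SD above B6 as deposited, 0 under quantile normalization and -0.0616 after centring. On chromosome 9 both males lay outside in 29 genes under quantile normalization and 5 beyond the range by more than its width, male 1 alone in 84 and 8 (134 from the second arrays), and male 2 alone in 20 and 5. Elsewhere both lay outside in 18 and 0 (64 with no filter, 21 from the first arrays), male 1 alone in 1274 and 58 (1975 from the second arrays), and male 2 alone in 0 beyond the width (260 with no filter). The cause of these shifts was not tested.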
